A study of Mus musculus with 9 samples.

Results

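The class I antigen presentation genes described here were 10 members of 27719 genes in a count table of mouse colon. They were found by symbol, and all 10 passed the filter on low counts that left 12566 genes for testing. They were the classical heavy chains H2-K1 and H2-D1, the light chain B2m, the peptide loading genes Tap1, Tap2 and Tapbp, the immunoproteasome subunits Psmb8, Psmb9 and Psmb10, and Nlrc5. The colon of C57BL/6J mice was studied, with 3 groups of 3 mice and 1 Nanopore cDNA library per mouse. The control group drank water. The DSS group received 2.5% dextran sodium sulfate, a polymer that injures the colon lining, in its drinking water for 7 days. The DSS + EA group received the same DSS. From 5 days after its start these mice also had 5 daily sessions of electroacupuncture (EA) at the ST36 points of both legs, each of 30 minutes with current pulses of 2 Hz and 0.2 mA. Per the study's methods, control and DSS mice were held for the same time without EA. Per the study's methods the mice were killed after the 5 days of treatment, with no separate day given for control and DSS mice. Age and sex are not given in the sources used here. A group with EA but no DSS was not analysed here.

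MHC class I molecules show short peptides from inside the cell to CD8 T cells. The proteasome cuts proteins into these peptides, the TAP transporter carries them into the endoplasmic reticulum, and tapasin helps to load them onto a heavy chain that is paired with beta-2 microglobulin. Interferons make cells exchange the catalytic subunits of the standard proteasome for those of the immunoproteasome, and Nlrc5 is a transactivator of class I genes. In the gut, epithelial cells and leukocytes both make class I molecules.

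Total counts ranged from 2627695 to 4235576 per library, so 3 counts corresponded to 0.652 to 1.15 CPM (counts divided by the TMM-scaled total of their library, on the usual CPM scale). All 8 epithelial markers searched for were detected in every library. Their summed level was 3799 to 4258 CPM in control mice, 395 to 2477 CPM in DSS mice and 2972 to 3776 CPM in DSS + EA mice. The summed level of 4 pan-leukocyte markers was 53.4 to 71.2 CPM in control mice, 166 to 867 CPM in DSS mice and 121 to 152 CPM in DSS + EA mice. Neutrophil markers summed to 22.6 to 158 CPM, 4408 to 26116 CPM and 1175 to 1579 CPM in the same order. DSS mouse 1 had the highest epithelial and the lowest leukocyte sum of its group. DSS + EA mice 2 and 3 held 14449 and 6763 CPM of pancreatic enzyme transcripts, against 315 CPM in DSS + EA mouse 1 and at most 262 CPM in the other mice. In whole colon, fewer cells of a type and less RNA per cell cannot be told apart. The p-values measure the spread between these mice, which may share a litter or a cage.

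Of the 10 members, 7 lie on chromosome 17, Psmb10 and Nlrc5 on chromosome 8 and B2m on chromosome 2 (GRCm38). Psmb9, Tap1, Psmb8 and Tap2 are neighbours within 34.3 kb of the MHC. Psmb9 (chr17:34181987-34187764) and Tap1 (chr17:34187553-34197225) are read in opposite directions, and their annotated ends overlap. Psmb8 (chr17:34197721-34201454) and Tap2 (chr17:34203527-34216321) follow on the plus strand. Tapbp (chr17:33915899-33929292) and H2-K1 (chr17:33996017-34000347) lie before this cluster and H2-D1 (chr17:35262730-35267499) lies after it. Psmb10 is at chr8:105935735-105938444, Nlrc5 at chr8:94434356-94527272 and B2m at chr2:122147686-122153083, and all 10 are annotated as protein-coding. Sequence from RefSeq (GRCm38.p6) was matched for 8 of the 10 members. The stretches below are shown because 3 of the genes they serve, Psmb9, Tap1 and Psmb8, were the members called higher in DSS + EA than in both other groups, while B2m, H2-K1 and H2-D1 serve for contrast. The first runs from Psmb9 to Tap1, whose RefSeq start sites are 226 bases apart. The others hold the 250 bases before the RefSeq start site. The gene spans above come from GENCODE, where some genes start further upstream. The stretch from Psmb9 to Tap1 thus lies wholly within the span of Psmb9. The printed stretches of Psmb8 and H2-D1 likewise lie wholly within the spans of these genes. Each is given 5′ to 3′ on the strand of the gene named first. Capitals mark letters that match a searched motif on either strand.
Tap1 and Psmb9, chr17:34187331-34187555 (+): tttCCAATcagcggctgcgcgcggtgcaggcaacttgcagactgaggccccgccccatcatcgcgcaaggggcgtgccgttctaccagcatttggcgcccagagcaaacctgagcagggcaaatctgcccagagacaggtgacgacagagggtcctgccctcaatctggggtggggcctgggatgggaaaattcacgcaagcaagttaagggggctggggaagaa
Psmb8, chr17:34197945-34198194 (+): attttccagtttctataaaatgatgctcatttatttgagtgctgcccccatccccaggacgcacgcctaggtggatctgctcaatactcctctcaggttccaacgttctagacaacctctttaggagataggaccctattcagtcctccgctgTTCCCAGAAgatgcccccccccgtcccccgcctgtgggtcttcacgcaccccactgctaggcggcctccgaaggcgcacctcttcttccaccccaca
B2m, chr2:122147437-122147686 (+): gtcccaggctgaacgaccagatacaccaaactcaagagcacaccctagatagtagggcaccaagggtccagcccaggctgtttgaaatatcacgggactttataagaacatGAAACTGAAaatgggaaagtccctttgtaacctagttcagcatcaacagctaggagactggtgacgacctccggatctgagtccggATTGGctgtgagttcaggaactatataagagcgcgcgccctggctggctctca
H2-K1, chr17:34000334-34000583 (-): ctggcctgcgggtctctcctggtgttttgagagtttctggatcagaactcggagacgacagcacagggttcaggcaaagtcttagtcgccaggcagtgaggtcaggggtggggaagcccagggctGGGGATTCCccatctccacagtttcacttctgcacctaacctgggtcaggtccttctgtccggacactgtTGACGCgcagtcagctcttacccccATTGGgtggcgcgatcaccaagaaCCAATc
H2-D1, chr17:35262844-35263093 (+): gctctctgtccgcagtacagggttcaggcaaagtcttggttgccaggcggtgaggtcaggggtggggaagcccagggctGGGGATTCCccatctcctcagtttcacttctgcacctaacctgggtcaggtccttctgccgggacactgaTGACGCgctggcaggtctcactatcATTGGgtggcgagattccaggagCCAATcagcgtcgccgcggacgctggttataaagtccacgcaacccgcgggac

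The motifs were searched on both strands in windows of 300 bases, from 250 before to 50 after each RefSeq start. Like those of Psmb8, Psmb9 and H2-D1, the window of Tapbp lay within the GENCODE span of its gene. The letters GAAANNGAA, a form of a pair of interferon regulatory factor half-sites, were found in B2m alone among the 8 genes. They were found in 8.56% of the 32851 windows of all genes. Other forms of such a pair were not searched for, so a gene without this match may still hold such a pair. The printed stretches of H2-K1 and H2-D1 both hold tttcacttc, where the longer half-site lies on the other side, which the search did not cover. A STAT motif (GAS, TTCNNNGAA) was found in Psmb8 alone, and in 8.3% of all windows. An NF-kappa-B motif (GGGNNTTCC) was found in H2-K1 and H2-D1, and in 5.82% of all windows. The letters TGACGC, the core of the X2 element of MHC genes, were found in the same 2 genes and in 7.4% of all windows. CCAAT boxes were found in 6 of the 8 genes and in 37.4% of all windows. The box of Psmb9 and that of Tap1 are the same letters, since their windows overlap by 275 of 300 bases. Both heavy chains thus carried the same 9-letter NF-kappa-B match, followed 70 bases on by TGACGC and 25 bases after that by a CCAAT box. Their printed stretches were identical at 177 of 203 aligned bases (87.2%), with a shared run of 47 bases. These matches are descriptions of letters, and a motif that was not found says nothing of its factor.

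Most calls among the members came from comparisons with the DSS + EA group. In DSS against control, 0 of the 10 members were called higher and 1, Psmb10, was called lower, at an adjusted p under 0.05 in edgeR. Among all genes tested, 21.5% were called higher and 19.5% lower in that comparison. In DSS + EA against DSS, 4 members were called higher (Tap1, Psmb8, Psmb9 and Psmb10) and 0 lower, against 17.2% higher and 18.3% lower of all genes. In DSS + EA against control, 3 members were called higher (Tap1, Psmb8 and Psmb9) and 0 lower, against 3.00% higher and 0.637% lower of all genes. The same 3 were higher in DSS + EA than in both other groups, as were 1.15% of all genes. The median log2 fold change of the members was 0.29 in DSS against control, 0.90 in DSS + EA against DSS and 0.96 in DSS + EA against control, and over all genes it was 0.02, -0.02 and 0.00. These comparisons share mice and are given side by side, not as separate support.

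The members also differed in how far the mice of the groups overlapped. All 3 DSS + EA mice lay above all 3 DSS mice for 5 members, as they did for 24.2% of all genes. They lay above all 3 control mice for 7 members, as they did for 18.0% of all genes. The DSS and control mice were separated for 1 member, Psmb10, and for 52.0% of all genes. For B2m, Tap1, Psmb8, Psmb9 and Psmb10 every DSS + EA mouse lay above every other mouse. The share of all genes with this trait was not counted, and it can be at most the 18.0% that held against control.

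**Figure D1:**
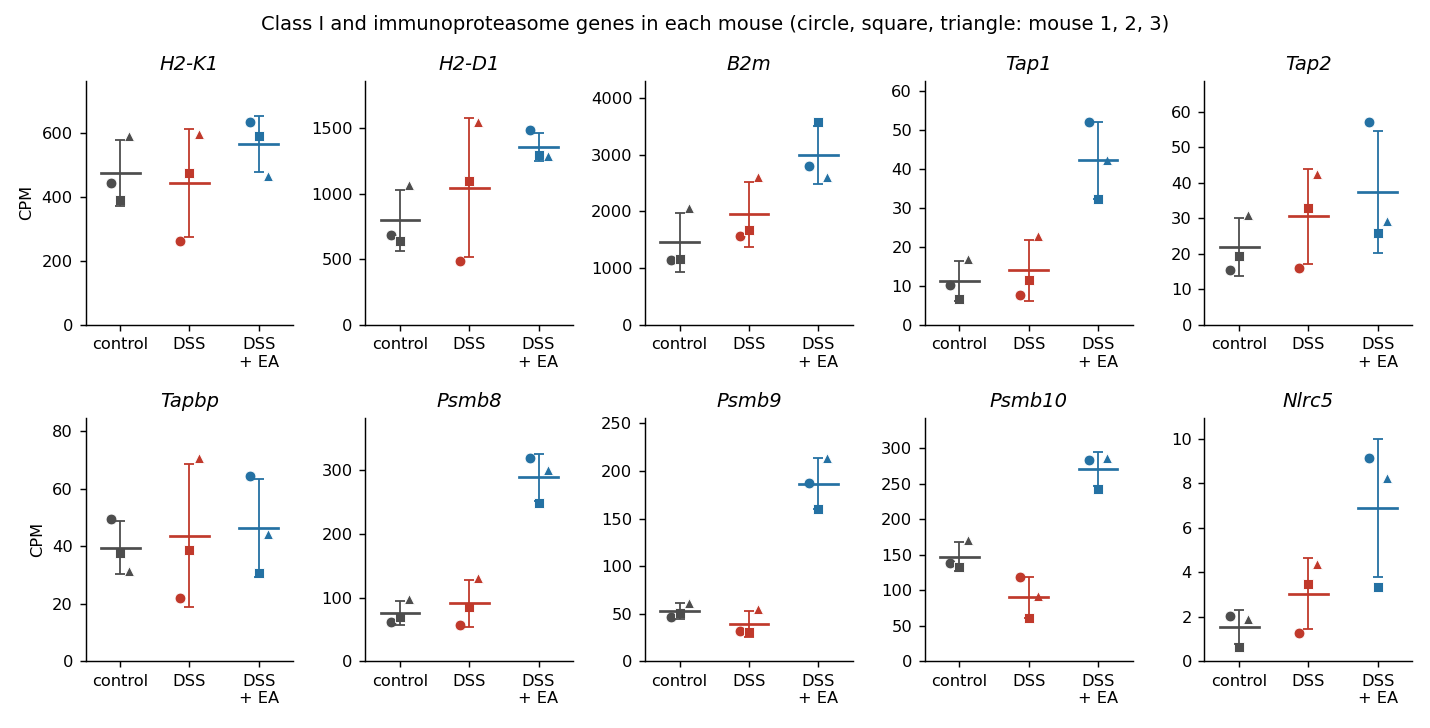
Level of each of the 10 members in each mouse, in CPM on linear axes that start at 0, with control mice in grey, DSS mice in red and DSS + EA mice in blue. Symbols stand for mice, horizontal lines for group means and bars for the SD (n = 3). The 3 DSS + EA mice sit between 248 and 319 CPM for Psmb8, above all other mice, while the groups overlap for H2-K1, Tap2 and Tapbp.

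All 3 immunoproteasome subunits were higher in DSS + EA than in DSS. Psmb9, the inducible beta1 subunit, was at 46.2, 50.5 and 61.7 CPM in control mice, at 32.2, 30.9 and 54.9 CPM in DSS mice and at 187, 159 and 213 CPM in DSS + EA mice. The DSS + EA mice lay well above the others, and control and DSS mice overlapped. Psmb9 was 4.75-fold higher in DSS + EA than in DSS (log2 fold change 2.25, SE 0.26, edgeR adjusted p = 0.000501). It was 3.54-fold higher than in control (log2 1.82, SE 0.26, adjusted p = 0.00585). Its log2 difference between DSS and control was -0.43 (SE 0.25, adjusted p = 0.202), which did not pass the test. Without DSS mouse 3, whose level was the highest of its group, it was -0.74 (adjusted p = 0.0256).

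Psmb8, the inducible beta5 subunit, was at 62.5, 69.2 and 97.3 CPM in control mice. In DSS mice it was at 57.6, 85.6 and 130.45 CPM, and in DSS + EA mice at 319, 248 and 299.8 CPM. Control and DSS mice overlapped, and each DSS + EA mouse lay above all of them. The difference was 3.17-fold against DSS (log2 1.66, SE 0.30, adjusted p = 0.00304) and 3.79-fold against control (log2 1.92, SE 0.30, adjusted p = 0.0088). DSS against control gave a log2 difference of 0.26 (SE 0.29, adjusted p = 0.509), and without DSS mouse 3 it was -0.09. The call against control was lost without control mouse 1 (adjusted p = 0.0671) or without control mouse 2 (adjusted p = 0.0569), with log2 differences of 1.79 and 1.86.

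Psmb10, the inducible beta2 subunit, was the only member called in DSS against control. Its level was 139, 133 and 171 CPM in control mice, 118, 61.3 and 91.4 CPM in DSS mice and 283, 243 and 286 CPM in DSS + EA mice. The 3 groups did not overlap, with DSS mice lowest and DSS + EA mice highest. It was 3.00-fold higher in DSS + EA than in DSS (log2 1.58, SE 0.24, adjusted p = 0.00149). It was 1.63-fold lower in DSS than in control (log2 -0.71, SE 0.24, adjusted p = 0.0384). That lower level was called in 1 of the 9 fits that left out a mouse, the one without DSS mouse 1 (log2 -0.98, adjusted p = 0.00454). In the other 8 fits its log2 difference lay between -0.81 and -0.47 and its adjusted p between 0.0502 and 0.121. DSS + EA against control gave a log2 difference of 0.88 (SE 0.24, adjusted p = 0.0819), with an adjusted p of 0.0249 without DSS mouse 1 and of 0.0312 without DSS mouse 2.

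Psmb8, Psmb9 and Psmb10 were higher in DSS + EA than in DSS in each of the 9 fits that left out a mouse. Without DSS + EA mice 2 and 3, which held the most pancreatic transcripts, the log2 differences of the same 3 genes were 1.82, 2.27 and 1.66. In that fit the lone DSS + EA mouse is assumed to vary like the other mice. That mouse also held pancreatic transcripts, since Prss2 was at 73.4 CPM or more in every DSS + EA mouse.

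**Figure D2:**
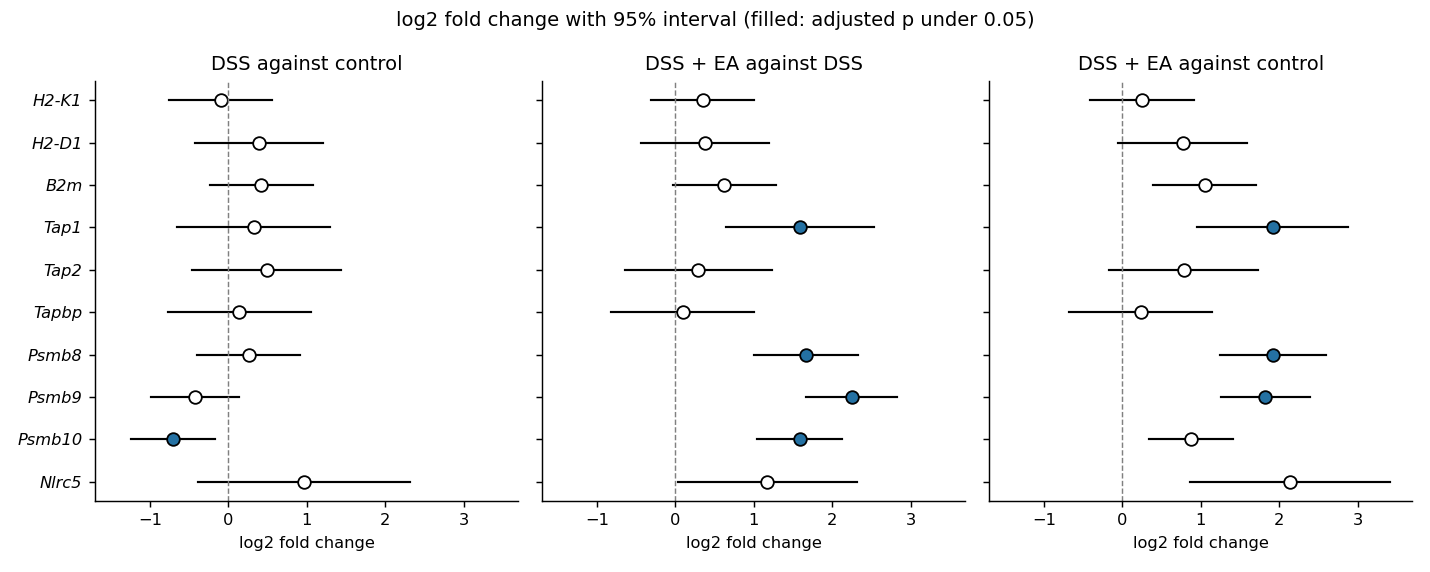
Log2 fold change of each member in the 3 comparisons, with 95% intervals from the edgeR fit. Filled points passed an adjusted p under 0.05, which was 1 member in DSS against control, 4 in DSS + EA against DSS and 3 in DSS + EA against control.

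Each inducible subunit takes the place of a standard one, Psmb8 that of Psmb5, Psmb9 that of Psmb6 and Psmb10 that of Psmb7. The standard subunits were not called in the comparisons with DSS + EA. In DSS + EA against DSS and against control 0 of the 3 were called, with log2 differences from -0.37 to -0.11 and from -0.05 to 0.33. In DSS against control Psmb7 was higher by 0.71 on the log2 scale (SE 0.16, adjusted p = 0.00665) and the other two were not called. The ratio of inducible to standard counts within a library does not depend on how libraries are scaled.

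The log2 ratio of Psmb8 to Psmb5 was -2.0, -2.05 and -1.65 in control mice, -2.13, -1.64 and -1.44 in DSS mice and 0.15, 0.06 and 0.07 in DSS + EA mice. In DSS + EA mice the counts of both subunits were thus nearly equal, and in the other mice Psmb5 had the larger count. For Psmb9 to Psmb6 the log2 ratio was -2.65, -2.78 and -2.32 in control mice, -3.74, -3.45 and -3.02 in DSS mice and -0.81, -1.17 and -0.83 in DSS + EA mice. For Psmb10 to Psmb7 it was 0.37, 0.23 and 0.48 in control mice, -0.68, -1.69 and -0.91 in DSS mice and 1.09, 0.81 and 0.84 in DSS + EA mice. The 3 groups did not overlap for the last of these pairs of genes nor for Psmb9 to Psmb6, with DSS mice lowest.

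From DSS to DSS + EA the ratios differed by 1.83, 2.47 and 2.00 on the log2 scale, in the order Psmb8, Psmb9 and Psmb10. From control to DSS + EA they differed by 1.99, 1.65 and 0.55. In each of these 6 comparisons all DSS + EA mice lay above all mice of the other group, at an exact two-sided permutation p of 0.1, the smallest that 3 against 3 mice allow. From control to DSS the ratio differed by 0.16 for Psmb8 (overlapping groups, exact permutation p = 0.6). It differed by -0.82 for Psmb9 and by -1.46 for Psmb10, with all DSS mice below all control mice (exact permutation p = 0.1). Over the 9 comparisons the Benjamini-Hochberg adjusted value was 0.1125 for each of the 8 at 0.1. Per kilobase of transcript, the ratio of Psmb8 to Psmb5 was 0.133 to 0.176 in control mice, 0.126 to 0.203 in DSS mice and 0.574 to 0.612 in DSS + EA mice. Per kilobase, Psmb10 exceeded Psmb7 in control mice (1.04 to 1.23) and in DSS + EA mice (1.55 to 1.89) and lay below it in DSS mice (0.274 to 0.551). Ratios per kilobase assume that counts grow with transcript length, which reads of full-length cDNA need not do. By counts, the ratio of Psmb8 to Psmb5 was 1.04 to 1.11 in DSS + EA mice.

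**Figure D3:**
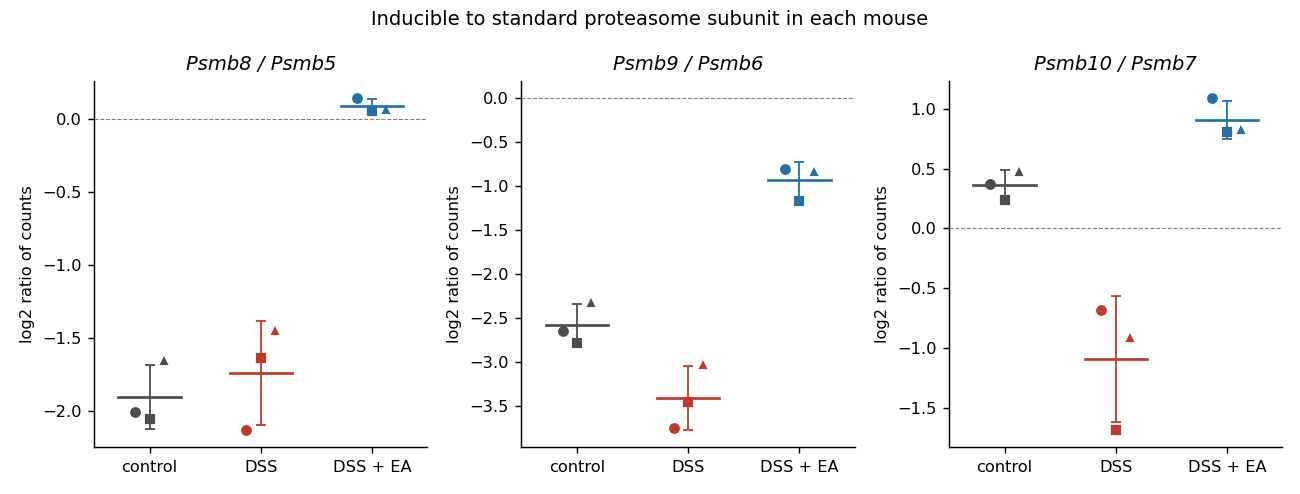
Log2 ratio of the counts of each immunoproteasome subunit to its standard counterpart in each mouse, with lines for group means and bars for the SD (n = 3). DSS + EA mice lie highest in all 3 panels, and the panel of Psmb10 shows DSS mice below control mice (means of -1.09 and 0.36).

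Of the 3 peptide loading genes, Tap1 was called higher in DSS + EA. Tap1, a chain of the TAP transporter, was at 10.2, 6.65 and 16.9 CPM in control mice, 7.72, 11.5 and 22.8 CPM in DSS mice and 52.0, 32.1 and 42.2 CPM in DSS + EA mice. Control and DSS mice overlapped, and the DSS + EA mice lay above both. Tap1 was 3.01-fold higher in DSS + EA than in DSS (log2 1.59, SE 0.42, adjusted p = 0.0166) and 3.78-fold higher than in control (log2 1.92, SE 0.43, adjusted p = 0.0426). Behind these values stood 20 to 171 counts per library.

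The calls of Tap1 changed when single mice were left out. Against DSS, the call was lost without DSS mouse 2 (adjusted p = 0.0621), without DSS + EA mouse 1 (adjusted p = 0.0564) and without DSS + EA mice 2 and 3 together (adjusted p = 0.0846). Against control, it was lost in 6 of the 9 fits that left out a mouse, without control mouse 1 (adjusted p = 0.197), control mouse 2 (0.158), DSS mouse 2 (0.0535) or DSS + EA mouse 1 (0.12), 2 (0.0624) or 3 (0.151). The log2 difference against control stayed between 1.65 and 2.31 in those 9 fits. DSS against control gave a log2 difference of 0.33 (adjusted p = 0.579), which was -0.19 without DSS mouse 3.

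Tap2, the other chain of the same transporter, was at 15.5, 19.3 and 31.0 CPM in control mice, 16.1, 33.0 and 42.4 CPM in DSS mice and 57.2, 25.8 and 29.2 CPM in DSS + EA mice. The 3 groups overlapped, and DSS + EA mouse 1 was the highest of all. Its log2 differences were 0.49 in DSS against control, 0.29 in DSS + EA against DSS and 0.78 in DSS + EA against control (adjusted p = 0.387, 0.609 and 0.399). Tapbp, which encodes tapasin, was at 49.6, 37.6 and 31.4 CPM in control mice, 21.9, 38.7 and 70.5 CPM in DSS mice and 64.5, 30.6 and 44.1 CPM in DSS + EA mice. These values overlapped throughout, with log2 differences of 0.14, 0.09 and 0.23 and adjusted p-values of 0.809, 0.882 and 0.826. The 95% interval of Tapbp in DSS + EA against DSS ran from -0.82 to 1.00, and that of Tap2 from -0.64 to 1.23. The difference between Tap1 and Tap2 itself was not tested.

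Reads of full-length cDNA need not grow in number with transcript length, so levels per kilobase may favour short transcripts. In each group B2m had the highest mean level of the 10 members and Nlrc5 the lowest, both per kilobase and in CPM. B2m was at 1688 ± 607 CPM per kilobase of transcript in control mice, 2262 ± 665 in DSS mice and 3488 ± 597 in DSS + EA mice (SD, n = 3 each), and Nlrc5 at 0.203 ± 0.1, 0.402 ± 0.209 and 0.912 ± 0.41 CPM per kilobase. H2-D1 came next at means of 379, 498 and 645 CPM per kilobase, and H2-K1 followed at 294, 274 and 349. Within every mouse H2-D1 lay above H2-K1. Per kilobase, the ranges of these heavy chains overlapped in control and in DSS mice and not in DSS + EA mice. In CPM they did not overlap in control mice either (at most 591 for H2-K1 and at least 640 for H2-D1). The immunoproteasome subunits ranked Psmb10, Psmb8, Psmb9 in each group, at means of 113, 46.9 and 39.1 CPM per kilobase in control mice, 68.9, 56.0 and 29.1 in DSS mice and 206, 177 and 138 in DSS + EA mice. Per kilobase, Psmb8 and Psmb9 overlapped in every group, and Psmb10 and Psmb8 in DSS and DSS + EA mice. Within single mice Psmb8 lay above Psmb9 in every mouse. Psmb10 lay above Psmb8 in every mouse but DSS mice 2 and 3. In CPM the mean of Psmb8 exceeded that of Psmb10 in DSS mice (91.2 and 90.4) and DSS + EA mice (289 and 271). Among the loading genes Tapbp had the highest mean in each group, at 13.6, 15.1 and 16.0 CPM per kilobase. The mean of Tap2 lay above that of Tap1 in control mice (6.37 and 3.8 CPM per kilobase) and DSS mice (8.87 and 4.74), and below it in DSS + EA mice (10.9 and 14.3), with overlapping ranges in all 3 groups. Compared within each mouse, Tap2 lay above Tap1 per kilobase in every control and DSS mouse. Tap1 lay above Tap2 per kilobase in every DSS + EA mouse, while in CPM Tap2 was higher in DSS + EA mouse 1 (57.2 and 52.0).

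Neither H2-K1 nor H2-D1 passed the test in any of the 3 comparisons. H2-K1 was at 445, 391 and 591 CPM in control mice, 262, 474 and 597 CPM in DSS mice and 636, 592 and 468 CPM in DSS + EA mice. All 3 groups overlapped, and its log2 differences of -0.10, 0.35 and 0.25 did not pass the test (adjusted p = 0.815, 0.381 and 0.723, in the order DSS against control, DSS + EA against DSS and DSS + EA against control). H2-D1 was at 683, 640.02 and 1064 CPM in control mice, 488, 1099.8 and 1549 CPM in DSS mice and 1483, 1296 and 1289 CPM in DSS + EA mice. The DSS + EA mice lay above all control mice and within the range of the DSS mice. Its log2 differences were 0.39, 0.37 and 0.77 in the same order (adjusted p = 0.415, 0.447 and 0.324), and the 95% interval of the last ran from -0.05 to 1.59. The DSS mice spread most, and without DSS mouse 1 H2-D1 was higher in DSS than in control by 0.71 (adjusted p = 0.0356). In DSS mice 1, 2 and 3 the leukocyte markers summed to 166, 499 and 867 CPM and the epithelial markers to 2477, 1249 and 395 CPM, so that the mouse with the lowest H2-D1 had the fewest leukocyte transcripts. The part of the cell makeup in these values was not tested.

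B2m, the light chain of all class I molecules, was at 1147, 1153 and 2055 CPM in control mice and at 1567, 1665 and 2603 CPM in DSS mice. In DSS + EA mice it was at 2807, 3581 and 2610.25 CPM. The lowest DSS + EA mouse lay just above the highest DSS mouse. B2m was 1.54-fold higher on average in DSS + EA than in DSS (log2 0.62, SE 0.29, adjusted p = 0.121) and 2.07-fold higher than in control (log2 1.05, SE 0.30, adjusted p = 0.0917), and neither value passed the test. Without DSS mouse 3 the first had an adjusted p of 0.0471 (log2 0.90), and without control mouse 3 the second had one of 0.04996 (log2 1.39). Its log2 difference in DSS against control was 0.42 (adjusted p = 0.273).

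Mouse class I heavy chain genes are close copies of each other, and reads may have been divided between them in counting. The counts of 17 listed heavy chain genes were therefore also summed. Their sum differed by -0.0028 on the log2 scale in DSS against control (SE 0.31, adjusted p = 0.996), by 0.62 in DSS + EA against DSS (SE 0.31, adjusted p = 0.145) and by 0.62 in DSS + EA against control (SE 0.31, adjusted p = 0.358). None of these passed the test. H2-D1 made up 41.2 to 42.8% of the sum in control mice, 44.5 to 58.9% in DSS mice and 45.4 to 49.3% in DSS + EA mice. H2-K1 made up 23.8 to 26.8%, 22.7 to 24.3% and 17.9 to 20.7% in the same order. H2-T23, which encodes the non-classical molecule Qa-1, made up 21.2 to 22.9% in control mice, 5.37 to 14.6% in DSS mice and 20.1 to 22.4% in DSS + EA mice. Its share was lowest in each of the DSS mice.

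**Figure D4:**
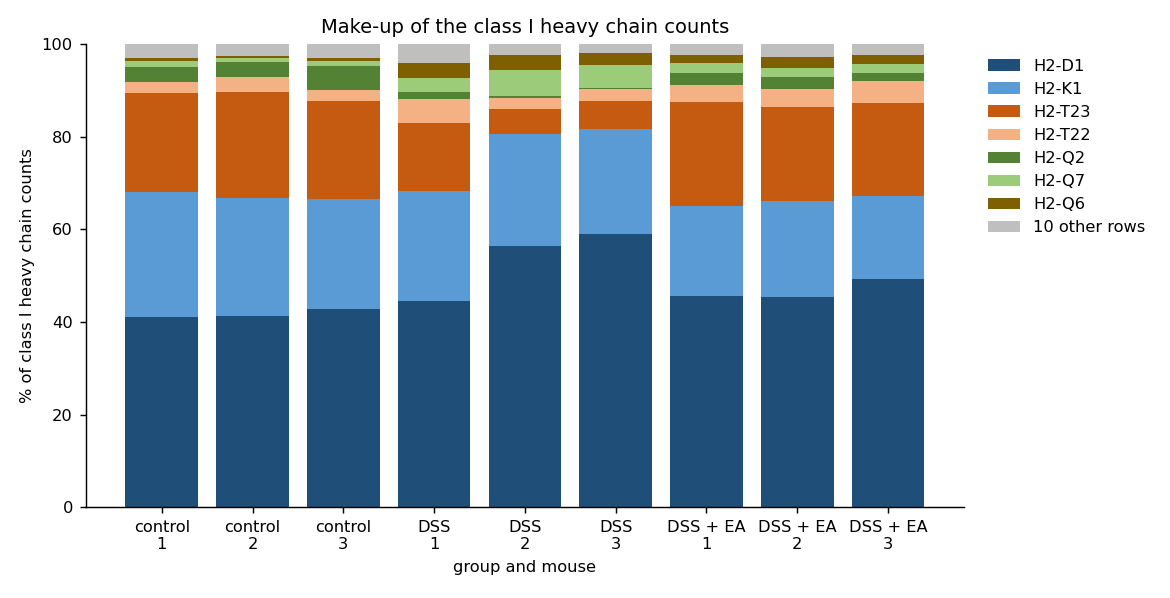
Share of each heavy chain gene in the summed counts of 17 class I heavy chain genes, in percent, with 1 bar per mouse. The orange segment of H2-T23 is 5.37 to 14.6% in DSS mice and 20.1% or more in the other mice.

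Some of the non-classical and class I-like genes were called in each comparison. Of 19 non-classical and class I-like genes 17 were tested. In DSS against control 6 were higher and 4 lower, in DSS + EA against DSS 6 were higher and 0 lower, and in DSS + EA against control 3 were higher and 0 lower. Of all genes tested, 21.5% were higher and 19.5% lower in the first comparison. The shares were 17.2% and 18.3% in DSS + EA against DSS and 3.00% and 0.637% in DSS + EA against control. They also serve as background for the gene lists that follow. The median log2 difference of the non-classical and class I-like genes was 0.21, 0.07 and 0.57 in this order, also with genes at the floor set to their bounds. H2-T23 was at 354, 354 and 527 CPM in control mice, 161, 105 and 159.8 CPM in DSS mice and 730.5, 578 and 524 CPM in DSS + EA mice. It fell by 1.54 on the log2 scale in DSS (adjusted p = 0.00122) and was higher by 2.11 in DSS + EA than in DSS (adjusted p = 0.000573). H2-Q1 was at 17 to 44 counts in control mice, 1 to 2 counts in DSS mice and 22 to 46 counts in DSS + EA mice. Taking 3 counts per library as the floor, it was at least 12.6-fold lower in DSS than in control and at least 13.9-fold higher in DSS + EA than in DSS. H2-T24 was at 0 to 1 counts in control mice, 1 to 4 counts in DSS mice and 11 to 22 counts in DSS + EA mice, at least 6.11-fold higher in DSS + EA than in control. H2-Q6 was higher in DSS (log2 2.15, adjusted p = 0.00115) and in DSS + EA (log2 2.30, adjusted p = 0.00778) than in control. The direction of single close copies is uncertain where their reads could be divided.

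Nlrc5 was near the floor of the counts. It was at 8, 2 and 5 counts in control mice, 4, 16 and 14 counts in DSS mice and 30, 9 and 26 counts in DSS + EA mice. In CPM this was 2.03, 0.665 and 1.92, then 1.29, 3.48 and 4.37, then 9.13, 3.36 and 8.25. The DSS + EA mice lay above all control mice and overlapped with the DSS mice. Its log2 difference was 2.14 in DSS + EA against control (SE 0.57, adjusted p = 0.0771), 1.17 in DSS + EA against DSS (SE 0.51, adjusted p = 0.0997) and 0.97 in DSS against control (SE 0.61, adjusted p = 0.227). The first had an adjusted p of 0.0415 without DSS mouse 1.

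Of 13 other listed regulators of class I genes 12 were tested. In DSS against control 2 were higher and 5 lower, in DSS + EA against DSS 4 were higher and 1 lower, and in DSS + EA against control edgeR called 0, with 2 at an unadjusted p under 0.05. Their median log2 difference was -0.35, 0.50 and 0.34 in this order. Irf2, an interferon regulatory factor, was at 58.6 to 66.1 CPM in control mice, 16.5 to 23.1 CPM in DSS mice and 62.8 to 69.1 CPM in DSS + EA mice. It fell by 1.64 in DSS (adjusted p = 0.000199) and was higher by 1.74 in DSS + EA than in DSS (adjusted p = 0.000386). Rfxank, a part of the RFX complex that binds MHC promoters, fell by 1.77 in DSS (adjusted p = 0.000754) and was higher by 0.87 in DSS + EA than in DSS (adjusted p = 0.0323). Rela, a subunit of NF-kappa-B, took the opposite course, higher in DSS than in control by 1.10 (adjusted p = 0.00171) and lower in DSS + EA than in DSS by a log2 difference of -0.77 (adjusted p = 0.0124).

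Of 9 interferon gamma signalling genes, which share Irf1 with the list of regulators, 7 were tested. In DSS against control 2 were higher and 3 lower, in DSS + EA against DSS 2 were higher and 2 lower, and in DSS + EA against control 1 was higher and 0 lower, with median log2 differences of -0.20, 0.41 and 0.21. Irf1, an interferon-induced activator, was at 70.5 to 79.5 CPM in control mice, 29.3 to 56.5 CPM in DSS mice and 96.7 to 109 CPM in DSS + EA mice. It fell by 0.89 in DSS (adjusted p = 0.0149) and was higher by 1.35 in DSS + EA than in DSS (adjusted p = 0.00297). Irf9, a DNA-binding factor of type I interferon signalling, fell by 1.24 in DSS (adjusted p = 0.0233) and was higher by 2.38 in DSS + EA than in DSS (adjusted p = 0.0016). Socs3, an inhibitor of cytokine signalling, was higher by 4.38 in DSS than in control (adjusted p = 0.00017) and lower in DSS + EA than in DSS by a log2 difference of -1.62 (adjusted p = 0.015). Ifng itself was at 0 counts in all control mice, at 0, 1 and 0 counts in DSS mice and at 3, 1 and 0 counts in DSS + EA mice, so a difference in its level was not detectable at this depth.

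Beside the inducible subunits, other genes of the proteasome were counted. Of 11 further subunits of the 20S core, 4 were higher in DSS than in control (Psma6, Psmb3, Psma2 and Psmb4, by 0.51 to 1.10 on the log2 scale), 1 was lower in DSS + EA than in DSS (Psma6, log2 -0.56, adjusted p = 0.0397), and 0 were called in DSS + EA against control. Their median log2 difference was 0.32 in DSS against control, 0.07 in DSS + EA against DSS and 0.37 in DSS + EA against control. Of 10 activators and assembly factors, 2 were higher in DSS + EA than in DSS and 1 was lower, the assembly chaperone Psmg4 (log2 -0.53, adjusted p = 0.0443), and in DSS against control 1 was higher and 1 lower. In DSS + EA against control 1 was higher and 0 lower. Their median log2 difference was 0.05, 0.28 and 0.17 in the order DSS against control, DSS + EA against DSS and DSS + EA against control. The 2 higher than in DSS were Psme1 and Psme2, the subunits of the interferon-inducible PA28 activator. Psme1 was at 190, 175 and 238 CPM in control mice, 185, 169 and 188 CPM in DSS mice and 407, 369 and 407 CPM in DSS + EA mice. It was higher in DSS + EA than in DSS by 1.13 (adjusted p = 0.00147) and than in control by 0.97 (adjusted p = 0.0145). Psme2 was at 81.8 to 85.1 CPM in control mice, 52.1 to 69.3 CPM in DSS mice and 87.8 to 107 CPM in DSS + EA mice, lower in DSS than in control (log2 -0.49, adjusted p = 0.046) and higher in DSS + EA than in DSS (log2 0.71, adjusted p = 0.0118).

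Of 12 further genes of peptide loading and trimming, 0 were higher and 3 lower in DSS than in control, 3 were higher and 1 lower in DSS + EA than in DSS, and 1 was higher and 0 lower in DSS + EA than in control, with median log2 differences of -0.11, 0.55 and 0.18. Tapbpl, which encodes the tapasin-related peptide editor TAPBPR, was at 29.9 to 32.6 CPM in control mice, 12.2 to 17.7 CPM in DSS mice and 41.5 to 55.1 CPM in DSS + EA mice. It fell by 1.06 in DSS (adjusted p = 0.00372) and was higher by 1.64 in DSS + EA than in DSS (adjusted p = 0.000748). Erap1, the aminopeptidase that trims peptides in the endoplasmic reticulum, was higher in DSS + EA than in DSS by 0.66 (adjusted p = 0.0254) and than in control by 1.00 (adjusted p = 0.0237). Lnpep, an aminopeptidase of endosomes, was lower in DSS + EA than in DSS (log2 -1.42, adjusted p = 0.00815). The protein disulfide isomerase Pdia6 was lower in DSS than in control (log2 -0.58, adjusted p = 0.0445) and higher in DSS + EA than in DSS (log2 0.74, adjusted p = 0.0196).

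**Figure D5:**
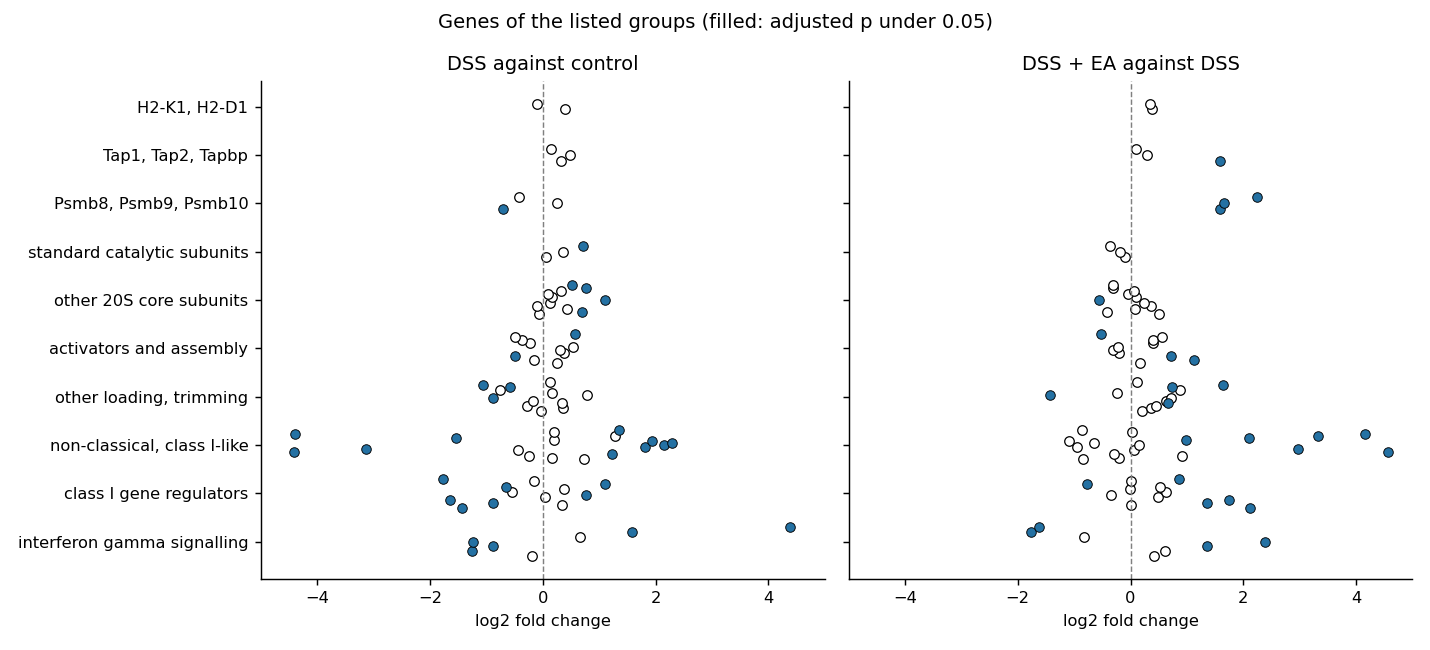
Log2 fold change of each tested gene of the listed groups in DSS against control (left) and DSS + EA against DSS (right), 1 point per gene, filled where the adjusted p was under 0.05. In DSS + EA against DSS the 3 points of Psmb8, Psmb9 and Psmb10 lie between 1.58 and 2.25, and those of the standard catalytic subunits lie between -0.37 and -0.11.

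The genes with the pattern most like that of the members were sought among 10145 genes with a mean of at least 5 CPM. The measure was Pearson's r between the log2 CPM of a gene and the mean z-score of the 10 members over the 9 libraries, which share the differences between the groups, so no p is given. The 10 highest were Stat2 (r = 0.952), Noc3l (0.944), Rbm43 (0.94), Ido1 (0.935), Ggt1 (0.935), Slfn4 (0.932), Utp6 (0.931), Gbp3 (0.929), Farsa (0.928) and Tgtp2 (0.923). Stat2 was at 15.2, 15.0 and 21.5 CPM in control mice, 13.8, 15.9 and 27.5 CPM in DSS mice and 64.8, 35.9 and 57.1 CPM in DSS + EA mice. Gbp3, an interferon-induced guanylate-binding protein, was at 6.61 to 15.3 CPM in control mice, 7.72 to 20.3 CPM in DSS mice and 58.3 to 105 CPM in DSS + EA mice. The mean z-score of the members was -0.63, -0.86 and -0.03 in control mice, -1.21, -0.37 and 0.46 in DSS mice and 1.25, 0.59 and 0.80 in DSS + EA mice. DSS mouse 1 was the lowest of all 9 and DSS + EA mouse 1 the highest.

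Markers of several cell types differed between the groups beside these genes. The summed level of 8 T and NK cell markers was 13.0 to 23 CPM in control mice, 11.9 to 31.5 CPM in DSS mice and 32.9 to 37.1 CPM in DSS + EA mice. At most 2 of the 8 were at 0 counts in a library. Of the 5 that were tested, 0 were higher and 1 lower in DSS than in control, 1 was higher and 0 lower in DSS + EA than in DSS, and 0 were called in DSS + EA against control. By their sum the DSS + EA mice lay above all others, and singly they did so for Cd3g, Cd8b1 and Nkg7. At most 18.0% of all genes tested can have this trait. Cd8b1 was near the floor, at 3 to 7 counts in DSS + EA mice and at most 4 in control and 3 in DSS mice. For Cd3e, Cd3d, Cd4, Cd8a and Gzmb the DSS + EA mice overlapped with at least 1 other group. The sum of the pancreatic markers also set the DSS + EA mice above all others (at least 315 CPM against at most 262 CPM). Singly, Prss2, Ctrb1, Pnlip and Cpa1 did so as well, by far larger margins, and Cela1 did not. Macrophage and monocyte markers summed to 368 to 374 CPM, 1102 to 2099 CPM and 706 to 758 CPM in the same order, and 5 dendritic cell markers to 5.37 to 6.86, 4.06 to 8.04 and 2.61 to 12.7 CPM. B and plasma cell markers summed to 1429 to 2752 CPM, 133 to 402 CPM and 391 to 748 CPM. Endothelial markers summed to 23.8 to 29.6 CPM, 64.7 to 84.5 CPM and 27.6 to 29.5 CPM, and smooth muscle markers to 1760 to 2111 CPM, 739 to 1304 CPM and 1216 to 1378 CPM. The part of the cell makeup in the levels of the members was not tested.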

How the data were processed

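Full-length cDNA of total colon RNA was sequenced by Nanopore in 9 libraries. The authors deposited 1 table of raw gene counts (genome build mm10 per the submitters' processing notes; the aligner, counter and use of strand are not given in the sources used here). Of its 27733 lines, 14 without counts were skipped, and 27719 genes were used. The members and gene lists were chosen with earlier results of these data known. Counts were analysed with edgeR 4.0.16 in R 4.3.3: TMM factors, filterByExpr by group (12566 genes), 1 quasi-likelihood fit over all 9 libraries with group as the only term, and Benjamini-Hochberg adjustment over all genes tested. A gene was called at an adjusted p under 0.05. CPM use TMM-scaled totals, and log2 CPM a pseudocount of 0.5. The 95% intervals come from this fit and include the spread between mice, and floors (3 counts) cover counting error only. Subunit ratios were compared by exact permutation tests. Alternatives were DESeq2 1.42.0, the study's rule (log2 fold change beyond 2.5, P under 0.01), other scalings and filters, the 2 groups alone, genes with Ensembl identifiers alone, a replicate block, and each mouse left out. Same-numbered mice of different groups did not deviate together (correlations of -0.159 to 0.103), so numbers were not taken to pair mice. Mice of different numbers were not compared in this way, so a cage or batch shared by number was not tested. The script was tested on simulated data. All 10 members, at most 4 genes per list (smallest P) and the 10 most alike genes were named. 1 gene of the lists is not reported here. Positions come from GENCODE.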

Additional observations from a re-analysis of the deposited data

How the results depend on the processing

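Of the results tested, Psmb8, Psmb9 and Psmb10 in DSS + EA against DSS kept their direction and call in every alternative run on them, except the study's own rule of a log2 fold change beyond 2.5. Under that rule 0 members were called in DSS against control, 0 in DSS + EA against DSS and 0 in DSS + EA against control. Of all genes tested, 10.2%, 6.41% and 2.08% met it in the same order, so 0 of 10 members lies near these shares. A fit chosen after seeing the data left out DSS + EA mice 2 and 3, which held the most pancreatic counts, and kept 1 mouse of that group. The number of members called in DSS + EA against control was 3, and it was 6 with DESeq2 and 7 with only the 2 groups in the fit. It ranged from 1 to 5 when each mouse was left out. For DSS against control the number was 0 with only the 2 groups in the fit, and ranged from 0 to 2 when each mouse was left out. For DSS + EA against DSS it ranged from 3 to 5. With DESeq2, B2m (adjusted p = 0.0295), Psmb10 (0.043) and Nlrc5 (0.0475) were called in DSS + EA against control. Tap1 lost that call with library totals (adjusted p = 0.0577) and with a mean of at least 20 counts (0.0566), and without the 2 DSS + EA mice Tap1 (0.262), Psmb8 (0.139) and Psmb9 (0.138) lost it. With only the 2 groups in the fit Psmb10 lost its call in DSS against control (adjusted p = 0.0921). The number of all genes called in DSS + EA against control was 457, and it was 697 with DESeq2, 1149 with only the 2 groups and 110 to 772 when each mouse was left out. Values near 0 changed sign. The summed heavy chains in DSS against control differed by -0.0028 on the log2 scale, by 0.012 with RLE factors and by 0.042 with library totals, and from -0.31 to 0.25 when each mouse was left out. The log2 ratio of Psmb8 to Psmb5 in DSS against control was -0.15 with the other 20S core subunits as the standard. When each mouse was left out, the log2 difference in DSS against control ranged from -0.37 to 0.15 for H2-K1, from -0.0020 to 0.71 for H2-D1, from -0.19 to 0.69 for Tap1, from -0.38 to 0.43 for Tapbp and from -0.088 to 0.48 for Psmb8. In DSS + EA against DSS it ranged from -0.16 to 0.60 for Tap2 and from -0.23 to 0.61 for Tapbp, and in DSS + EA against control from -0.11 to 0.46 for Tapbp. The cause of these changes was not tested. With the replicate block, 1, 4 and 3 members were called in DSS against control, DSS + EA against DSS and DSS + EA against control, and no call of a member changed. Nlrc5 rested on 2 to 30 counts per library.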
